A study of Rattus norvegicus with 12 samples.

Results

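The pyruvate dehydrogenase switch was followed through 8 genes: the kinases Pdk1, Pdk2, Pdk3 and Pdk4, the phosphatases Pdp1 and Pdp2, and the genes of the E1 enzyme that they act on, Pdha1 and Pdhb. Members were taken by symbol from a table of 30454 genes, and all 8 were found, had counts and passed the filter on low counts, among 13692 genes tested. Their identifiers in the table are ENSRNOG00000001517 (Pdk1), ENSRNOG00000004172 (Pdk2), ENSRNOG00000012513 (Pdk3), ENSRNOG00000009565 (Pdk4), ENSRNOG00000016180 (Pdp1), ENSRNOG00000012343 (Pdp2), ENSRNOG00000025383 (Pdha1) and ENSRNOG00000007895 (Pdhb). RNA was sequenced from 12 samples of rat cells labelled PC12, a line from an adrenal chromaffin tumour, in 3 groups of 4. All 3 groups had been deprived of oxygen and glucose and then given oxygen again. The group labelled OGDR had nothing further, the group labelled MSCs (MSC below) had mesenchymal stem cells added, and the group labelled rTMS-MSCs (rTMS_MSC below) had the stem cells and repetitive transcranial magnetic stimulation at 10 Hz. All libraries are placed at 48 h after treatment. No cells without deprivation and no stimulation without stem cells were analysed here, and the sources used here do not say how the stem cells were brought together with the labelled cells or which species they came from. It is also unknown whether a group's 4 samples were grown apart, and the p-values therefore reflect sample-to-sample spread, which may be technical.

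Pyruvate dehydrogenase is the mitochondrial complex that turns pyruvate from glycolysis into acetyl-CoA for the citric acid cycle. Its E1 enzyme is built from alpha subunits (Pdha1) and beta subunits (Pdhb). Kinases of the Pdk family phosphorylate the alpha subunit and switch the complex off, so that pyruvate is diverted to lactate or to other uses, and the phosphatases Pdp1 and Pdp2 remove the phosphate and switch it on again. Pdk1 is known as a target of the oxygen-sensing factor Hif1a, and Pdk4 is known to rise in fasting, under fatty acids and under glucocorticoids. Transcript levels, which are all that was measured here, say nothing directly of phosphorylation or enzyme activity.

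Pdk1 and Pdk2, the kinase genes with the largest differences here, moved in opposite directions, and their promoters are shown for that reason. RefSeq's promoter table (build GRCr8, 250 bases before to 50 after the start site) held 6 of the 8 members: the 4 kinases, Pdha1 and Pdhb. Sequences are given 5′ to 3′ on the gene's strand. Capitals mark ACGTG read on either strand, a form of the core of the site that Hif1a binds. Other forms of that core were neither searched for nor marked. The Pdk1 window is chr3:77113264-77113563, plus strand, and the Pdk2 window is chr10:80483863-80484162, minus strand.
Pdk1: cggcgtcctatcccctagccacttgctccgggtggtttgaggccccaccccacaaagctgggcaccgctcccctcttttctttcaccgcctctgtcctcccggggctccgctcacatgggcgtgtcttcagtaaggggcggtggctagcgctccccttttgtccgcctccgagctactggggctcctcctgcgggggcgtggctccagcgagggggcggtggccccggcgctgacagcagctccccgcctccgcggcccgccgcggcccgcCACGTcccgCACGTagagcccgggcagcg
Pdk2: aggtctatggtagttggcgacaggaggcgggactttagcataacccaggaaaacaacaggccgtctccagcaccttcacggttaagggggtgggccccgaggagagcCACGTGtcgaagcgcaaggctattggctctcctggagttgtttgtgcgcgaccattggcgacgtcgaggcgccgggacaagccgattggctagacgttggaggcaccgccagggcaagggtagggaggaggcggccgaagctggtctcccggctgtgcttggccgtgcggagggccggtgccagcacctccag
Pdk1 held 2 matches, which begin at positions 22 and 31 counted from the start site, both on the opposite strand. Pdk2 held 1 CACGTG, which begins at -143 and reads as ACGTG on both strands. ACGTG was found in 4 of the 6 windows (Pdk1, Pdk2, Pdk3 and Pdhb), against 19.3% of 33469 promoters of the same length. Its extension CACGTG, which overlaps it, was found in Pdk2 and Pdhb and in 6.42% of all promoters. GTAAACA, a forkhead core, was found in Pdhb alone of the 6 windows (3.78% of all promoters), as was AGGTCA, a nuclear receptor core (16.2%). TGTTCT, a glucocorticoid receptor core, was in none of the 6 windows and in 20.7% of all promoters. The windows of Pdk1 and Pdk2 were 72.0% and 64.0% G or C, and the 6 windows ranged from 54.3% (Pdhb) to 72.0% (Pdk1). The shares over all promoters were not matched for base composition, so the count of 4 of 6 is not read as an enrichment of ACGTG. A match is a run of letters and not a shown binding site.

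Counts in genes ran from 18246250 to 20471838 per library. Values are CPM, a gene's counts relative to the library size after TMM scaling, and 1 CPM is about 19.6 counts. A gene is said to rise or fall only where its adjusted p was under 0.05 in the quasi-likelihood (QL) test of edgeR over all tested genes. Log2 fold changes are given ± their standard error. In counts compared gene by gene between replicates, the 3 pairs with rTMS_MSC 3 had a chi-square of 13.4 to 24.9 per gene, and the other 15 pairs had 4.02 to 10.4. Where leaving out 1 library moved a member's value by over 1.5 times, the value without it is given. Defining markers of chromaffin cells were largely absent: of 14, 3 averaged at least 1 CPM in OGDR and 4 in MSC and in rTMS_MSC, Ddc and Hand2 had no count in any library, and Th, which starts catecholamine synthesis, averaged 0.479 CPM. Their summed level, most of it Scg2, was 284 to 352 CPM in OGDR, 202 to 248.6 in MSC and 212 to 229 in rTMS_MSC. Of 10 Schwann and glial markers, 8 averaged at least 1 CPM in every group. Their summed level was 1014 to 1107 CPM in OGDR, 1221 to 1302 in MSC and 1217 to 1319 in rTMS_MSC. Of 12 stromal markers, 7 reached 1 CPM in OGDR, 7 in MSC and 8 in rTMS_MSC. Their summed level was 689 to 761 CPM in OGDR, 839 to 942 in MSC and 597 to 768 in rTMS_MSC, with Lum at 0 and Dcn at 1 count over all libraries. Of 9 macrophage markers, 2 averaged at least 1 CPM in each group, Cd14 and Cd68. The 9 summed to 52.0 to 60.0 CPM in OGDR, 51.7 to 67.0 in MSC and 64.6 to 78.1 in rTMS_MSC. Most of this was Cd14, which averaged 50.5, 57.3 and 67.3 CPM. Cd68 averaged 3.33, 2.65 and 2.95 CPM, and Adgre1 and C1qa had no count. The part of these shifts in the results below was not tested, and in bulk RNA fewer cells of a type and less RNA per cell cannot be told apart.

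With stem cells added, kinase transcripts were redistributed: Pdk1 fell, Pdk2 and Pdk3 rose, and Pdk4 did not pass the test. Of the 8 members, 4 changed between MSC and OGDR, 2 up and 2 down, where 20.2% of all tested genes changed (11.6% up, 8.63% down). With upper quartile scaling, 1446 genes rose and 1423 fell in place of 1582 and 1181, and the members' calls stayed at 2 up and 2 down. The median log2 fold change of the members was -0.01 against -0.00 over all tested genes. Their median size, without regard to sign, was 0.22 against 0.16. The groups did not overlap for 6 members, 3 higher and 3 lower in MSC, where 24.7% of tested genes did not overlap (13.2% higher, 11.5% lower).

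Pdk1, the kinase that responds to low oxygen, had 24.4, 24.4, 28.9 and 23.5 CPM in OGDR. It had 13.5, 14.4, 15.5 and 17.4 CPM in MSC and 14.99, 13.4, 13.2 and 16.0 CPM in rTMS_MSC. Every library with stem cells lay below every OGDR library, while MSC and rTMS_MSC overlapped. Between MSC and OGDR it fell by 0.73 ± 0.105 on the log2 scale, to 0.601 of the OGDR level (QL adjusted p = 2.64e-05), and 6.24% of tested genes had a larger difference. Between rTMS_MSC and MSC the difference was -0.08 (95% interval -0.30 to 0.15, QL adjusted p = 0.649). Leaving out 1 library took it to -0.0089 without MSC 4, -0.037 without rTMS_MSC 3, -0.045 without rTMS_MSC 2, and -0.13 without MSC 1 or rTMS_MSC 4.

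Pdk2, a kinase expressed in most tissues, stood at 32.5, 26.3, 27.3 and 27.2 CPM in OGDR. In MSC it stood at 48.2, 48.2, 45.7 and 49.998 CPM, and in rTMS_MSC at 50.7, 54.0, 56.6 and 43.1 CPM. All 8 libraries with stem cells were above all 4 without. It rose 1.69-fold in MSC against OGDR (log2 fold change 0.76 ± 0.0893, QL adjusted p = 2.01e-06). The difference between rTMS_MSC and MSC was 0.09 (95% interval -0.09 to 0.27, QL adjusted p = 0.499). It was 0.038 without rTMS_MSC 3, 0.16 without rTMS_MSC 4 and 0.013 without both replicates 3. The rTMS_MSC values spread more widely, with a coefficient of variation of 11.5% against 3.63% in MSC. RefSeq places a long noncoding RNA over the Pdk2 gene, and the strand setting is not known here, so reads of the pair may not be separated.

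Pdk3, a kinase known from brain, testis and tumour cells, was covered by 2849 to 4141 counts per library. It had 139, 143, 155 and 155 CPM in OGDR, 191, 178, 178 and 196 in MSC, and 204, 207, 202 and 208 in rTMS_MSC. The 3 groups did not overlap, in rising order. It rose by 0.33 ± 0.0547 in MSC against OGDR (QL adjusted p = 0.000147) and by 0.47 ± 0.0547 in rTMS_MSC against OGDR (QL adjusted p = 1.45e-06). The step from MSC to rTMS_MSC, at 0.14 ± 0.0545, missed the threshold in this fit (QL adjusted p = 0.0688). It passed in DESeq2 (adjusted p = 0.0376), in limma voom with quality weights (adjusted p = 0.049) and without MSC 4 (QL adjusted p = 0.0477).

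Pdk4, the fasting-responsive kinase, had the fewest counts of the 8 members (133 to 191 per library). Its CPM were 9.31, 7.54, 6.56 and 6.91 in OGDR, 9.32, 8.98, 8.77 and 8.34 in MSC, and 7.22, 8.11, 7.90 and 8.27 in rTMS_MSC. OGDR 1 lay among the MSC libraries, and rTMS_MSC lay wholly below MSC. No comparison passed: 0.22 in MSC against OGDR (95% interval -0.05 to 0.50, QL adjusted p = 0.252), -0.17 in rTMS_MSC against MSC (-0.44 to 0.10, QL adjusted p = 0.379) and 0.05 in rTMS_MSC against OGDR (-0.22 to 0.33, QL adjusted p = 0.786). The difference of MSC from OGDR was 0.34 without OGDR 1. That of rTMS_MSC from OGDR was 0.17 without OGDR 1, -0.0095 without OGDR 3, 0.012 without OGDR 4, 0.095 without rTMS_MSC 1 and 0.030 without rTMS_MSC 4.

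**Figure D1:**
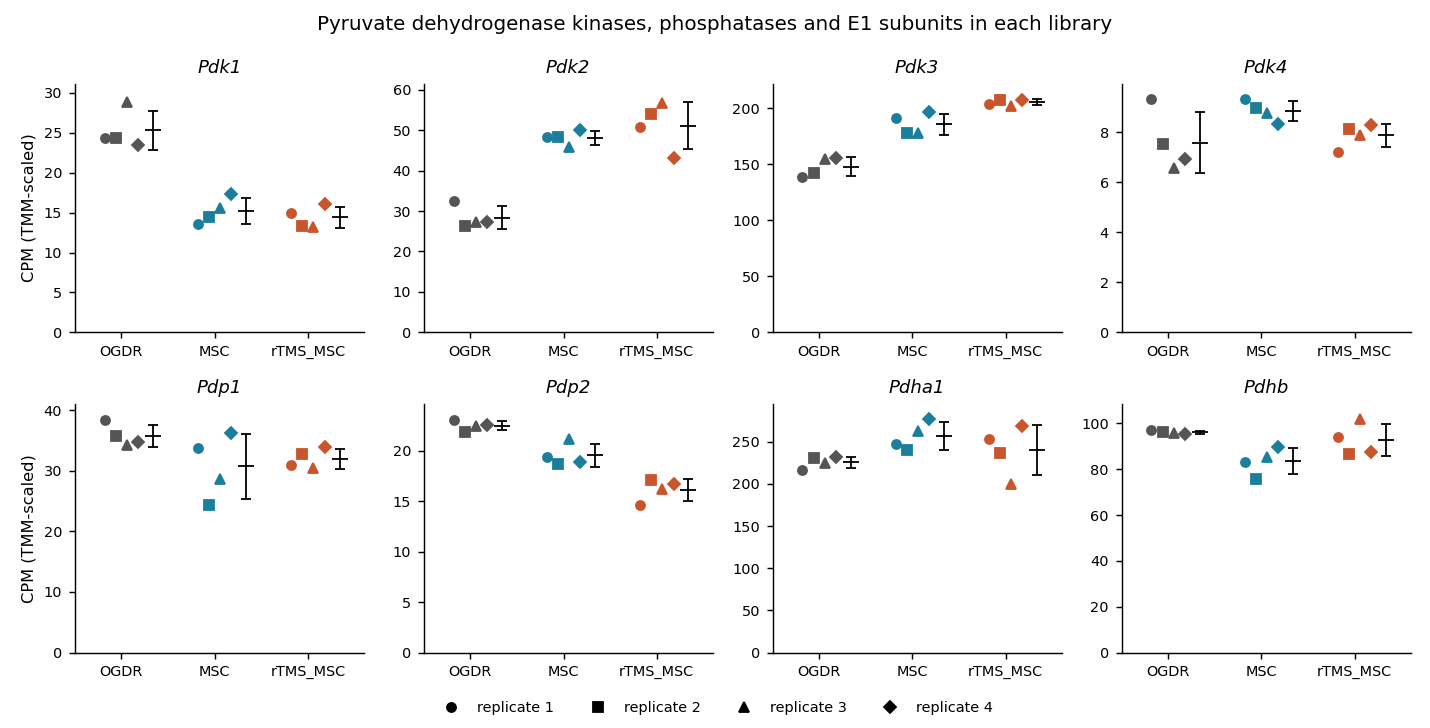
CPM of each of the 8 genes (vertical axes, from 0) in each of the 12 libraries, by group, with marker shapes for replicate numbers and bars for the mean ± SD of 4 libraries. Pdk1 is lower and Pdk2 higher in all 8 libraries with stem cells than in the 4 OGDR libraries, Pdp2 is lowest in rTMS_MSC, and rTMS_MSC 3 has the lowest Pdha1 and the highest Pdhb of its group.

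The ratio of counts within a library does not depend on how libraries are scaled. Transcript lengths were not used here, so such a ratio is read only for how it differs between groups and not for which gene has more transcripts. Pdk2 had 0.947 to 1.33 counts for each Pdk1 count in OGDR, 2.88 to 3.56 in MSC and 2.68 to 4.29 in rTMS_MSC. The means were 1.13 ± 0.161, 3.18 ± 0.325 and 3.60 ± 0.719 (SD, n = 4). Of all kinase counts, Pdk1 made up 12.1 ± 0.918% in OGDR, 5.90 ± 0.557% in MSC and 5.17 ± 0.549% in rTMS_MSC. The share of Pdk2 was 13.6 ± 1.53%, 18.6 ± 0.461% and 18.3 ± 1.94%, and that of Pdk3 70.7 ± 2.17%, 72.0 ± 0.686% and 73.7 ± 1.35%. Summed over the 4 kinases, the level was 209 ± 7.58 CPM in OGDR, 258 ± 11.4 in MSC and 279 ± 3.43 in rTMS_MSC (SD, n = 4). The groups did not overlap in this sum, most of which is Pdk3.

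Both phosphatases averaged lower in the groups with stem cells than in OGDR. Pdp2 fell in rTMS_MSC against either other group, and Pdp1 passed no test. Pdp2, one of the catalytic subunits that reactivate the complex, had 23.0, 21.9, 22.5 and 22.5 CPM in OGDR. It had 19.3, 18.7, 21.2 and 18.9 CPM in MSC and 14.6, 17.1, 16.2 and 16.7 CPM in rTMS_MSC. The 3 groups did not overlap, in falling order. The difference of MSC from OGDR, -0.20 ± 0.0868, missed the threshold (QL adjusted p = 0.108). Pdp2 fell by 0.28 ± 0.0884 in rTMS_MSC against MSC (QL adjusted p = 0.0364) and by 0.48 ± 0.0877 in rTMS_MSC against OGDR (QL adjusted p = 0.00032). The call of rTMS_MSC against MSC was lost without any 1 of MSC 1, MSC 3, rTMS_MSC 1 or rTMS_MSC 3 (QL adjusted p = 0.0764, 0.133, 0.0944 and 0.0739), and without MSC 3 and rTMS_MSC 3 together (0.206). It was also lost in a fit of the 8 compared libraries (0.0711) and with no filter on low counts (0.0765).

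Pdp1, the calcium-stimulated phosphatase, had 38.4, 35.7, 34.2 and 34.8 CPM in OGDR, 33.7, 24.3, 28.7 and 36.2 in MSC, and 30.9, 32.7, 30.4 and 34 in rTMS_MSC. MSC overlapped both other groups and rTMS_MSC lay just below OGDR. MSC varied most, with a coefficient of variation of 17.3% against 5.21% in OGDR and 5.18% in rTMS_MSC. No comparison passed: -0.22 in MSC against OGDR (95% interval -0.43 to -0.01, QL adjusted p = 0.136), 0.06 in rTMS_MSC against MSC (-0.15 to 0.27, QL adjusted p = 0.716) and -0.16 in rTMS_MSC against OGDR (-0.37 to 0.05, QL adjusted p = 0.239). Without MSC 4 the difference between MSC and OGDR was -0.31 and passed (QL adjusted p = 0.0389), and without MSC 2 it was -0.12 (QL adjusted p = 0.41). The difference of rTMS_MSC from MSC was 0.11 without MSC 1, -0.038 without MSC 2, 0.031 without MSC 3, 0.15 without MSC 4 and 0.029 without rTMS_MSC 4. Summed over both phosphatases, the level was 58.3 ± 2.16 CPM in OGDR, 50.2 ± 5.31 in MSC and 48.1 ± 2.50 in rTMS_MSC (SD, n = 4). Each Pdp2 count came with 1.52 to 1.67 Pdp1 counts in OGDR, 1.30 to 1.91 in MSC and 1.88 to 2.12 in rTMS_MSC.

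Pdpr, the regulatory subunit that holds back the phosphatase, is no member but completes the enzyme. It had 33.8, 33.0, 29.7 and 30.5 CPM in OGDR, 26.3, 21.9, 29.9 and 25.7 in MSC, and 26.6, 23.3, 18.9 and 22.1 in rTMS_MSC. It fell by 0.48 ± 0.106 in rTMS_MSC against OGDR (QL adjusted p = 0.00169), and the difference of MSC from OGDR, -0.29, missed the threshold (QL adjusted p = 0.0576) but passed under 8 of 22 alternatives.

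The E1 subunits differed little, and in opposite directions. Pdhb had 97.0, 96.4, 95.8 and 95.5 CPM in OGDR, a coefficient of variation of 0.671%. It had 83.3, 75.7, 85.4 and 89.5 CPM in MSC and 94.1, 86.8, 102 and 87.7 CPM in rTMS_MSC. MSC lay wholly below OGDR, and rTMS_MSC overlapped both. Pdhb fell by 0.20 ± 0.065 in MSC against OGDR (QL adjusted p = 0.0301). That call was lost without any 1 of OGDR 1 to OGDR 4, MSC 1 or MSC 2 (QL adjusted p = 0.0589 to 0.114). In rTMS_MSC against MSC the difference was 0.15 (95% interval 0.01 to 0.29, QL adjusted p = 0.111), and against OGDR it was -0.05 (-0.19 to 0.08, QL adjusted p = 0.565). The latter was -0.10 without rTMS_MSC 3, -0.024 without rTMS_MSC 2 and -0.028 without rTMS_MSC 4.

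Pdha1, the subunit that carries the phosphorylation sites, had 217, 230, 224 and 231 CPM in OGDR, 248, 240, 262 and 277 in MSC, and 253, 237, 200 and 269 in rTMS_MSC. MSC lay above OGDR, and rTMS_MSC overlapped both, with rTMS_MSC 3 below every OGDR library. The difference of MSC from OGDR was 0.19 ± 0.072 and missed the threshold (QL adjusted p = 0.0758). It passed in a fit of the 8 compared libraries (QL adjusted p = 0.0121), with no filter on low counts (0.0385), and in limma voom with quality weights (0.0246). It also passed without rTMS_MSC 3 (QL adjusted p = 0.00988) and without rTMS_MSC 4 (0.0498), libraries that enter this contrast only through the shared spread. The difference of rTMS_MSC from OGDR was 0.09 (95% interval -0.06 to 0.24, QL adjusted p = 0.381) with rTMS_MSC 3 and 0.17 (QL adjusted p = 0.0294) without it, and 0.027 without rTMS_MSC 4. For rTMS_MSC against MSC it was -0.10 (95% interval -0.25 to 0.05, QL adjusted p = 0.352). This became -0.020 without rTMS_MSC 3 (QL adjusted p = 0.866), -0.060 without MSC 4, -0.16 without rTMS_MSC 4 and -0.011 without both replicates 3. Pdha1 had 2.24 to 2.42 counts for each Pdhb count in OGDR and 2.97 to 3.17 in MSC, with no overlap. In rTMS_MSC the ratio was 2.69, 2.73, 1.96 and 3.07, the lowest in rTMS_MSC 3. The like-named gene Pdha1l1 had 29 to 77 counts per library, 0.651% to 1.52% of those of Pdha1, and how reads shared by such copies were assigned is not known here. RefSeq places Map3k15, which had 1475 to 1997 counts per library, over part of Pdha1, so reads of these overlapping genes may not be separated either.

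**Figure D2:**
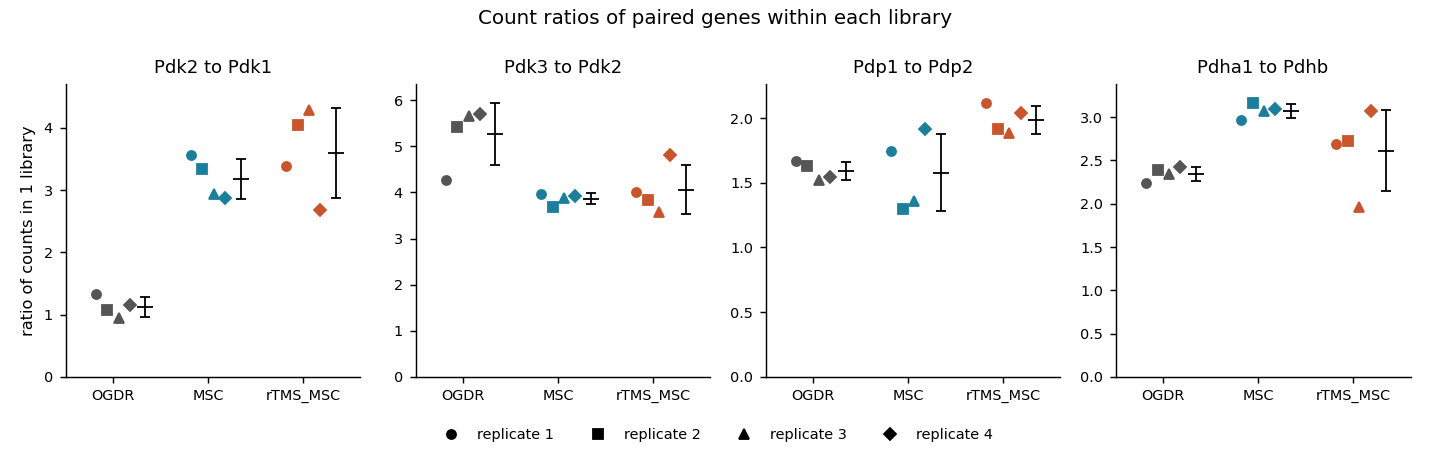
Ratio of the counts of 2 genes within each library (vertical axes, from 0) by group, with marker shapes for replicate numbers and bars for the mean ± SD of 4 libraries. The ratio of Pdk2 to Pdk1 is 0.947 to 1.33 in OGDR and at least 2.68 in every library with stem cells, and the ratio of Pdha1 to Pdhb is higher in MSC than in OGDR, with rTMS_MSC 3 at 1.96.

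With stimulation added to the stem cells, 1 of the kinases and phosphatases passed the test. Between rTMS_MSC and MSC 0 members rose and 1, Pdp2, fell, where 18.1% of all tested genes changed (7.14% up, 10.9% down) in the QL test. That share rests on 2475 genes, which became 1313 without MSC 1, 1006 without MSC 3, 1480 without rTMS_MSC 3 and 677 without both replicates 3. At an unadjusted p under 0.05 there were 2 up (Pdk3 and Pdhb) and 1 down. The median size of the members' differences was 0.12, against 0.17 over all tested genes. Their groups did not overlap for Pdk3, Pdk4 and Pdp2, 3 of 8, where 19.0% of tested genes did not overlap. Of these 3, 1 was higher and 2 lower, beside 8.25% and 10.8% of tested genes.

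Set against OGDR, rTMS_MSC showed 4 changed members, Pdk2 and Pdk3 up and Pdk1 and Pdp2 down, where 32.4% of all tested genes changed (16.2% in either direction). Pdk1 was at 0.57 of the OGDR level (log2 fold change -0.81 ± 0.106, QL adjusted p = 6.52e-06) and Pdk2 at 1.80-fold (0.85 ± 0.0892, QL adjusted p = 3.86e-07). This comparison uses the same OGDR libraries as that of MSC with OGDR, so its values for Pdk1, Pdk2 and Pdk3 are not independent of those given above. Median sizes were 0.32 for the members and 0.20 for all tested genes. The groups did not overlap for 5 members, 2 higher and 3 lower, where 30.3% of tested genes did not overlap (15.5% higher, 14.8% lower).

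**Figure D3:**
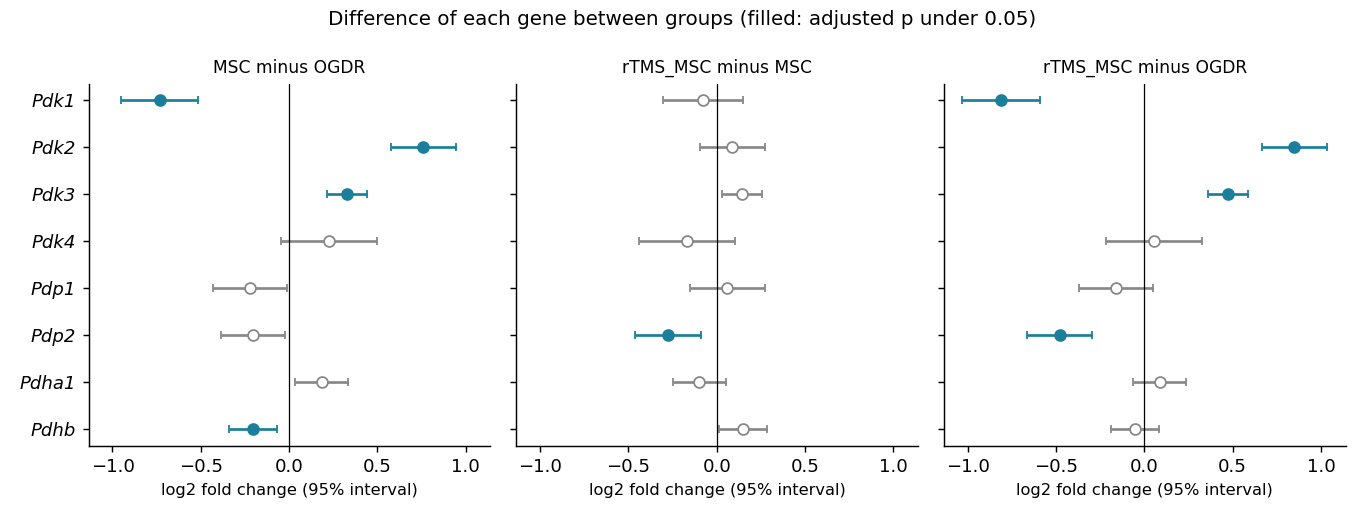
Log2 fold change of each of the 8 genes (points, horizontal axis) with its 95% interval in the 3 comparisons, filled where the QL adjusted p was under 0.05. Pdk1 lies left and Pdk2 and Pdk3 right of 0 in both comparisons with OGDR, and of the differences between rTMS_MSC and MSC only that of Pdp2 (-0.28) is filled.

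The rest of the complex and the routes into and out of it were read from lists of related genes. Each list's median log2 fold change is set against medians over all tested genes of -0.00 in MSC against OGDR, 0.02 in rTMS_MSC against MSC and 0.01 in rTMS_MSC against OGDR. The first list holds the subunits Dlat (the acetyltransferase core), Dld (the lipoamide dehydrogenase) and Pdhx (the binding protein), and Pdpr, which belongs to the phosphatase. Of these, 0 of 4 changed between MSC and OGDR in the QL test, with 2 down at an unadjusted p under 0.05, where 20.2% of all tested genes changed. DESeq2 and limma voom called 1 each, and the QL test called 1 without MSC 3, rTMS_MSC 1 or rTMS_MSC 3. Of all genes the 2 tools called 3081 and 3590, and the QL test 2382, 2685 and 3451, in place of 2763. Between rTMS_MSC and MSC 0 of 4 changed by any of the 3 tools, with 0 at an unadjusted p under 0.05, where 18.1% of all tested genes changed in the QL test. In rTMS_MSC against OGDR 2 of 4 fell, Pdpr and Dld, where 16.2% of all tested genes fell. Dld fell by 0.18 ± 0.0675 (QL adjusted p = 0.0482). That call was lost without OGDR 3 or 4, any 1 of MSC 1 to MSC 4, or rTMS_MSC 2 or 3. It was also lost in limma voom, in a fit of the 8 compared libraries and with a filter of 1 CPM in 4 libraries. The medians of these 4 genes were -0.14, -0.08 and -0.13 in the 3 comparisons.

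Among 11 tested genes of pyruvate supply and use, 1 rose and 2 fell in MSC against OGDR (median log2 fold change -0.01), beside 11.6% up and 8.63% down of all tested genes. Pc, pyruvate carboxylase, which feeds pyruvate to oxaloacetate past the dehydrogenase, had 82.5 to 97.7 CPM in OGDR, 164 to 177 in MSC and 163 to 182 in rTMS_MSC. It rose by 0.92 ± 0.0602 in MSC against OGDR (QL adjusted p = 4.17e-10), and no library with stem cells came near the OGDR range. Pkm, which makes pyruvate, fell by 0.28 ± 0.0529 and the malic enzyme Me2 by 0.29 ± 0.0575. Between rTMS_MSC and MSC 1 rose, the lactate dehydrogenase subunit Ldhb, by 0.23 (QL adjusted p = 0.0351), beside 7.14% up of all tested genes. Ldhb did not pass without MSC 1, MSC 3, rTMS_MSC 2 or rTMS_MSC 3, nor in a fit of the 8 compared libraries. Without rTMS_MSC 1, 2 genes of the list rose, and 984 of all genes in place of 977. The list's median there was 0.04. In rTMS_MSC against OGDR 4 rose and 2 fell, beside 16.2% up and 16.2% down of all tested genes. Pc was at 0.94, Ldhb at 0.38, Pkm at -0.25 and the list's median at 0.08.

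Genes for the cofactors lipoate and thiamine had 1 of 10 up and 1 down in MSC against OGDR, also in rTMS_MSC against OGDR. Of all tested genes, 11.6% rose and 8.63% fell in the former, and 16.2% rose and 16.2% fell in the latter. The thiamine transporter Slc19a2 fell by 0.46 and 0.43 in these comparisons, both calls lost without OGDR 3 or OGDR 4, and the latter also in limma voom. Between rTMS_MSC and MSC 0 of 10 changed in the QL test, DESeq2 or limma voom, where 18.1% of all tested genes changed in the QL test. At an unadjusted p under 0.05 there were 2 up, and 1 was called without rTMS_MSC 1. In that refit 2372 of all genes were called, in place of 2475. The medians of this list were -0.09, 0.09 and 0.01. Of 8 tested genes of the related 2-oxoglutarate and branched-chain dehydrogenase complexes, 2 rose with stem cells, beside 11.6% of all tested genes. They were the 2-oxoglutarate dehydrogenase Ogdh (0.30 ± 0.0587, QL adjusted p = 0.000747) and its relative Ogdhl (0.25, QL adjusted p = 0.0415, lost without OGDR 2, 3 or 4, MSC 2 or 3, or rTMS_MSC 2, with upper quartile scaling or with no filter). Ppm1k, the phosphatase of the branched-chain complex, fell by 0.60 in rTMS_MSC against MSC (QL adjusted p = 0.0477), from 5.82 to 3.82 CPM, and did not pass without OGDR 1 or 4, MSC 1, 3 or 4, or rTMS_MSC 2, 3 or 4, nor with upper quartile scaling, limma voom or the 8 compared libraries. In rTMS_MSC against OGDR, where 16.2% of all tested genes rose and 16.2% fell, 4 rose, among them Ogdh, Ogdhl (0.25, lost without OGDR 2, 3 or 4 or rTMS_MSC 2 or 4) and the branched-chain subunit Bckdhb (0.32), and 1 fell. The counts there were 2 up without OGDR 2, 3 or 4 or rTMS_MSC 2 or 4. In these refits 2050, 1759, 1811, 1893 and 2294 of all genes rose, in place of 2215. The medians of this list were 0.12, -0.03 and 0.17.

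Of the citric acid cycle, which takes up the product, 1 of 15 genes rose with stem cells, the isocitrate dehydrogenase Idh2 by 0.18 (QL adjusted p = 0.0393), beside 11.6% of all tested genes. That call was lost without OGDR 1, 3 or 4, MSC 2 or 4, or rTMS_MSC 2, and with upper quartile scaling. The malate dehydrogenase Mdh2 and the succinyl-CoA ligase subunit Suclg1 rose by 0.22 and 0.23 in rTMS_MSC against MSC (QL adjusted p = 0.0283 and 0.0377). They were 2 of 15, beside 7.14% of all tested genes. Neither passed without MSC 1, MSC 3, rTMS_MSC 2 or rTMS_MSC 3, or in a fit of the 8 compared libraries, nor Mdh2 without MSC 4 or Suclg1 without MSC 2. In rTMS_MSC against OGDR 3 of 15 rose, Idh3g by 0.28, Idh2 by 0.25 and the fumarase Fh by 0.20, beside 16.2% of all tested genes. Without rTMS_MSC 4 the cycle had 4 genes up in rTMS_MSC against MSC, and 5 up and 1 down in rTMS_MSC against OGDR. In the same refit 1350 of all genes rose against MSC, in place of 977. Against OGDR 2294 rose and 2389 fell, in place of 2215 and 2224. The cycle's medians were -0.02, 0.08 and 0.06. Fatty acid oxidation, the other source of acetyl-CoA, had 3 of 14 up and 3 down in MSC against OGDR, beside 11.6% and 8.63% of all tested genes. Cpt1a, which admits long-chain fatty acids to mitochondria, rose from 71.4 to 125 CPM (0.81 ± 0.0605, QL adjusted p = 3.19e-09), and the dehydrogenase Hadh rose by 0.28 (lost without MSC 4), while the thiolase subunit Hadhb fell by 0.32. Cpt1a fell by 0.18 in rTMS_MSC against MSC (QL adjusted p = 0.0446), a call lost without any 1 of OGDR 1 to 3, MSC 1 to 4 or rTMS_MSC 1 or 3, and with upper quartile scaling, limma voom, no filter or the 8 compared libraries. Acads, which oxidises short chains, rose by 0.27 there (QL adjusted p = 0.0217, lost without MSC 3, rTMS_MSC 2 or rTMS_MSC 3). In rTMS_MSC against OGDR 5 rose, including Cpt1a at 0.63 and Hadh at 0.38, and 1 fell, beside 16.2% up and 16.2% down of all tested genes. The PPAR target Angptl4, at 0.162 CPM in OGDR, 0.599 in MSC and 0.719 in rTMS_MSC, is counted as a rise in both comparisons with OGDR. It is near the floor and passed the filter on low counts through the groups where it is high, so its rise is not read as support. The medians of this list were 0.07, 0.12 and 0.16.

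Of 15 tested genes listed as regulators of Pdk genes, 2 rose and 3 fell with stem cells, and 1 rose and 7 fell with added stimulation. The medians were 0.04 and -0.35 against -0.00 and 0.02 over all tested genes. Not all of the 15 act on transcription directly: the list also holds genes of insulin signalling, such as Irs1, and some of the 7 were such genes. Of all tested genes, 11.6% rose and 8.63% fell with stem cells, and 7.14% rose and 10.9% fell with stimulation. The 7 became 5 without MSC 1 or MSC 3, 6 without rTMS_MSC 2 or rTMS_MSC 3, and 3 without both replicates 3. Falls over all tested genes numbered 1498, and 919 without MSC 1, 724 without MSC 3 and 523 without both replicates 3. They numbered 1090 without rTMS_MSC 2 and 1005 without rTMS_MSC 3. Hif1a, an oxygen-sensing factor, had 192 to 223 CPM in OGDR, 129 to 169 in MSC and 88.5 to 136 in rTMS_MSC. Hif1a fell in both steps, by 0.49 ± 0.1003 (QL adjusted p = 0.00128) and by 0.35 ± 0.101 (QL adjusted p = 0.0238, lost without MSC 1, MSC 3 or rTMS_MSC 2). Its part in the values of Pdk1 was not tested. Foxo1, a forkhead factor known to act on Pdk4, rose by 0.55 ± 0.116 with stem cells and fell by 0.62 ± 0.116 with stimulation (QL adjusted p = 0.0015 and 0.00242), and its part in the values of Pdk4 was not tested. Stat3 rose by 0.25 with stem cells. The nuclear receptor partner Rxra fell by 0.55 and Myc rose by 0.35 with stimulation. In rTMS_MSC against OGDR, 1 rose and 5 fell, beside 16.2% up and 16.2% down of all tested genes, with a median of -0.20. The 5 included Hif1a (-0.83), the insulin signalling adaptor Irs1 (-0.82) and the glucocorticoid receptor Nr3c1 (-0.40).

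**Figure D4:**
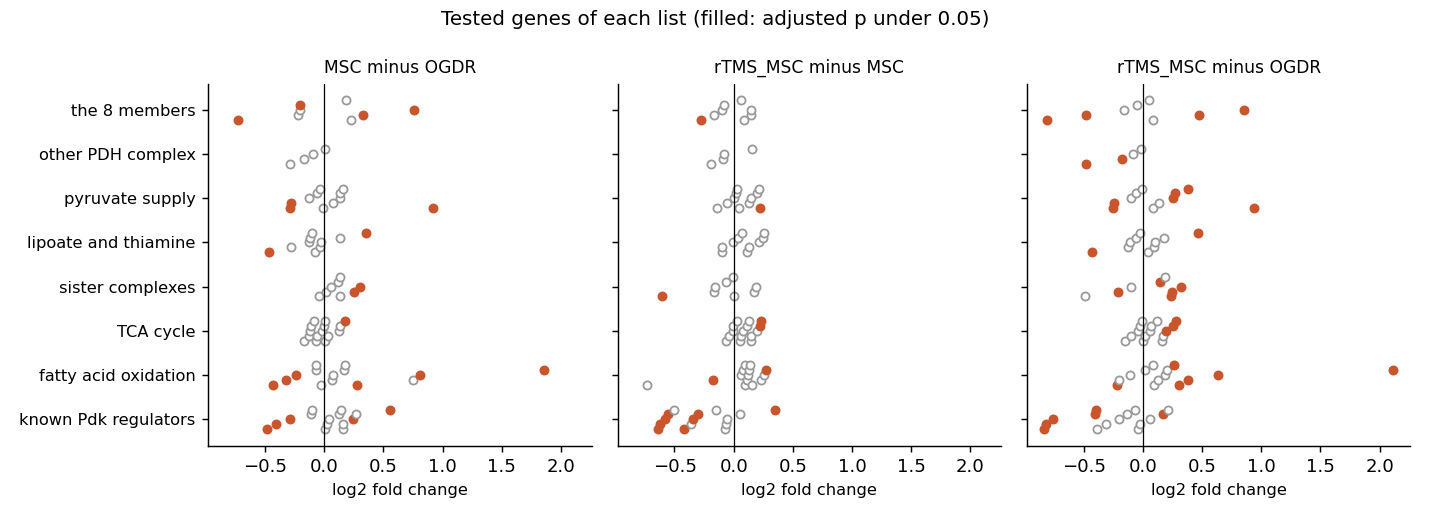
Log2 fold change (horizontal axis) of each tested gene of the 8 members and of 7 related lists in the 3 comparisons, filled where the QL adjusted p was under 0.05, with vertical offsets within a list for legibility only. Members and the pyruvate supply list hold changed genes on both sides of 0 in MSC against OGDR, and the known regulators lie mostly left of 0 in rTMS_MSC against MSC, where 7 of 15 fell.

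Genes with a course most like that of a changed member were found by the root mean square difference of log2 CPM, each gene centred on its own mean over the 12 libraries, among 10252 genes with a symbol and at least 5 CPM. All points share their libraries and group means, so likeness mostly reflects the 3 group levels. For Pdk1 the nearest were Arhgef2 (0.119), Gem (0.123) and Sik1 (0.124). For Pdk2 they were Pcolce (0.0898), Ccnd3 (0.0951) and Olig2 (0.101), and for Pdk3 Acss2 (0.0543), Plpp1 (0.0658) and Tgfb3 (0.0659). Qsox2 (0.0698), Actn1 (0.0723) and Pprc1 (0.0753) were nearest to Pdp2, and Snu13 (0.0357), Atp6v1d (0.0534) and Acbd6 (0.0548) to Pdhb. Among the members themselves the same measure was smallest for Pdp1 with Pdhb (0.136) and largest for Pdk1 with Pdk2 (0.77).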

How the data were processed

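RNA was measured in 12 libraries, 4 in each of 3 groups. Per the labels' protocols, RNA was extracted with TRIzol, captured with oligo(dT) and reverse transcribed with random primers. The submitters' processing notes name, with no role given, HISAT2 2.1.0, HTSeq 0.11.2, DESeq2 1.40.1 and the build mRatBN7.2. The authors' deposited table holds a raw count per gene and library. Its HTSeq summary lines were left out. Reads on no feature made up 51.7% to 52.7% of reads. The sources used here give neither the strand setting nor the handling of reads with several matches.

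Counts were analysed in R 4.3.3 with edgeR 4.0.16: filterByExpr (minimum count 10, total 15), TMM scaling, 1 quasi-likelihood fit of all 12 libraries with a mean per group and no replicate block, and Benjamini-Hochberg adjustment over 13692 genes at a threshold of 0.05. The standard error is the size of the log2 fold change divided by the square root of the F statistic. Alternatives used limma 3.58.1 and DESeq2 1.42.0. The procedure was tested on simulated data. Members and gene lists (138 symbols, 137 in the table) were chosen with earlier results of these data known. Named genes are the members, up to 3 changed genes with the smallest p per list and comparison, and the 3 genes nearest in course to each changed member. Dlat, Pdhx, Pdpr, Map3k15, Pdha1l1 and Hif1a were further named outside that rule, after their values were seen. Some genes that the rule picks are not reported here. Log2 CPM used a prior count of 2. Transcript lengths were not used here, so no gene is said to have more transcripts than another. Shares and sums over several genes are of counts or CPM, in which longer transcripts weigh more.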

Additional observations from a re-analysis of the deposited data

Results flagged for a closer look

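Pdk2 stood apart in OGDR 1, at 32.5 CPM against 26.3 to 27.3 CPM in the other 3 OGDR libraries. This was 1 of 24 sets of 4 libraries examined for a value far from the rest, and chance picks out about 1 set in 20. Without OGDR 1 the rise of Pdk2 in MSC against OGDR was 0.83 ± 0.0917 (QL adjusted p = 1.86e-06), and in rTMS_MSC against OGDR it was 0.92 (QL adjusted p = 4.65e-07).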

How the results depend on the processing

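Each of the 24 differences of a member was recomputed under 22 alternatives, which gave 528 values. Of these, 498 kept their direction and their side of the threshold, 16 lost the call, 12 gained one and 2 changed sign. The 2 were differences near 0 that had not passed: Pdp1 in rTMS_MSC against MSC without MSC 2 (-0.038; 0.15 at most, without MSC 4) and Pdk4 in rTMS_MSC against OGDR without OGDR 3 (-0.0095; 0.17 at most, without OGDR 1). Pdk1, Pdk2 and Pdk3 kept their calls against OGDR in both comparisons under all 22, as did Pdp2 in rTMS_MSC against OGDR. Over these, Pdk1 in MSC against OGDR ranged from -0.80 to -0.66 and Pdk2 from 0.73 to 0.83.

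Between rTMS_MSC and MSC the number of members called was 1, but 2 with DESeq2 and with limma voom, and 0 with no filter, in the fit of 8 libraries, with the replicate block and at a threshold of 0.01. With libraries left out it ranged from 0 to 2. In MSC against OGDR it ranged from 3 to 5, and in rTMS_MSC against OGDR from 4 to 5. Calls between rTMS_MSC and MSC over all genes became 3062 with DESeq2 and 2723 with limma voom, in place of 2475. With no filter they were 2643, and in the fit of 8 libraries 1758. Over all genes, a threshold of 0.01 left 1743, 858 and 2724 calls in MSC against OGDR, rTMS_MSC against MSC and rTMS_MSC against OGDR. Leaving out libraries gave 2243 to 3451, 677 to 3196 and 3461 to 4683. For rTMS_MSC against MSC, 2475 calls became 1313 without MSC 1, 1006 without MSC 3, 1480 without rTMS_MSC 3 and 677 without both replicates 3. Of 462 counts of called genes in the related lists, 110 moved by over 1.5 times.

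The labels do not say whether replicate numbers pair the samples. Same-numbered libraries had correlations of -0.205 to 0.128 over 12 pairs, 1 of them over 0.1. Of 12 libraries, 4 correlated best with their own number. With 4 libraries per group, these values cannot settle whether the samples were paired. With the replicate block 4, 0 and 4 members were called, Pdp2 in rTMS_MSC against MSC being lost (-0.28, QL adjusted p = 0.0568), and 2577, 1995 and 4185 genes in all. The block also ended the calls of Idh2 and Ogdhl in MSC against OGDR, and of Stat3 in rTMS_MSC against OGDR. In rTMS_MSC against MSC it ended those of Cpt1a, Irs1, Ldhb and Suclg1. Scaling by median ratios or upper quartiles changed no call of a member and moved the median of all genes by at most 0.0214. Upper quartiles ended the calls of Idh2 and Ogdhl in MSC against OGDR, and of Cpt1a and Ppm1k in rTMS_MSC against MSC. Cpt1a kept its calls against OGDR under all 22 alternatives. In the last 150 bases of the promoter window 3 of 6 held ACGTG, 1 CACGTG and 0 GTAAACA. The shares of all promoters in that part were 10.8%, 3.65% and 1.73%, again not matched for base composition. Levels per transcript length were planned and not run. Precision was lowest for Pdk4, with standard errors of 0.130 to 0.131.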
